A study of Mus musculus with 12 samples.

Results

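Nox4, the NADPH oxidase partners Cyba and Cybb, and the antioxidant enzymes Gpx1, Gpx3, Cat, Sod1, Sod2 and Sod3 were followed across 12 whole mouse kidneys taken at postnatal day 3. These 9 genes were found by exact symbol among the 24062 genes of the count tables. Nox4 was chosen by its fall in both models, so its values in those comparisons are a description and carry no test. The other 8 were chosen for their function, with earlier results of these data known. Each of the 4 groups held 3 kidneys from 2 litters. LIN28B OE kidneys (C57BL/6) carried a TRE-LIN28B transgene, a lox-STOP-lox-rtTA allele and Wt1-Cre, so that doxycycline given to the mother in a short pulse late in gestation switched on human LIN28B in cells of the Wt1 lineage only. Their controls were C57BL/6 wild-type littermates, whose transgene alleles and doxycycline exposure are not given in the sources used here. let-7 KO kidneys (a mix of CD1 and C57BL/6) lacked let-7a1, let-7d and let-7f1 in every cell from conception, with the other let-7 genes intact, and were compared with wild-type littermates of the same mixed strain (let-7 WT).

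NADPH oxidases carry electrons across a membrane to oxygen. Nox4 is the form that renal tubule cells make most of, it releases mainly hydrogen peroxide, and it works as a pair with the small membrane protein p22phox, the product of Cyba. Cybb encodes the phagocyte oxidase gp91phox, which needs the same partner. Superoxide dismutases turn superoxide into hydrogen peroxide in the cytosol (Sod1), the mitochondria (Sod2) and outside the cell (Sod3). Catalase (Cat) in peroxisomes and the selenium-containing glutathione peroxidases Gpx1, within cells, and Gpx3, secreted into plasma chiefly by the proximal tubule, then remove the peroxide.

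The let-7 miRNAs deleted in the KO are shown because the design turns on them. Capitals mark the seed, bases 2 to 8 from the 5′ end, which is the same in all 3. The sequences are from RefSeq (GRCm38.p6), and all 3 genes lie on the minus strand of chromosome 13, let-7d at chr13:48536078-48536099, let-7f-1 at chr13:48537889-48537910 and let-7a-1 at chr13:48538239-48538260.
mmu-let-7d-5p: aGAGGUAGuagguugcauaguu
mmu-let-7f-5p: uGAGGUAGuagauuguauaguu
mmu-let-7a-5p: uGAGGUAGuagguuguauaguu

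A message that pairs with the whole seed carries CTACCTC. The other 7-base match searched, TACCTCA, pairs with bases 2 to 7 only and ends in an A opposite base 1 of the miRNA. Among 3′ UTRs (GENCODE M21, GRCm38, the longest per coding gene, message strand), CTACCTC occurred in 9.0% and TACCTCA in 9.8% of 21028 genes. Of the 9 members, 7 had neither, among them Nox4 (1819 bases searched) and Gpx3 (719 bases). Cat had 1 TACCTCA, and Sod2 had 2 CTACCTC, of which the match at base 589 is followed by an A and so overlaps a TACCTCA. These matches are shown with their flanks, the matched bases in capitals and positions counted from the start of the 3′ UTR. A match is a description of the letters and not a tested site.
Cat, base 360: tattctcctatTACCTCAtggtctggtat
Sod2, base 589: ggccctgggctCTACCTCagtaatgaaaa
Sod2, base 1998: tcagatcctccCTACCTCcccacccaccc

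The promoters of Nox4, Gpx3 and Cat are shown because these are the members whose groups did not overlap in either model. Each is 300 bases, 250 before and 50 after the RefSeq start (GRCm38.p6), at chr7:87246399-87246698 on the plus strand for Nox4, chr11:54902604-54902903 on the plus strand for Gpx3 and chr2:103485104-103485403 on the minus strand for Cat. Capitals mark the GC box GGGCGG.
Nox4: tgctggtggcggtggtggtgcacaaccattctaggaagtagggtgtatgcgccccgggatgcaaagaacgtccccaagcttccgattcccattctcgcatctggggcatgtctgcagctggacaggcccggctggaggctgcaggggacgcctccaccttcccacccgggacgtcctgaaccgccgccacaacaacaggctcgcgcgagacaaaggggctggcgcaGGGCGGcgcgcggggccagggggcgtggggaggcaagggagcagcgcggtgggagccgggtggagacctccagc
Gpx3: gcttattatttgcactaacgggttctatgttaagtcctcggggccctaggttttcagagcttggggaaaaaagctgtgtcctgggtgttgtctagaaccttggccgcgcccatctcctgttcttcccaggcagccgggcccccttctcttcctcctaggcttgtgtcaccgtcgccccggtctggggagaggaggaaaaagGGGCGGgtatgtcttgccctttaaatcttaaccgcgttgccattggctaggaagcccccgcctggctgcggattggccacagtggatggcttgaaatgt
Cat: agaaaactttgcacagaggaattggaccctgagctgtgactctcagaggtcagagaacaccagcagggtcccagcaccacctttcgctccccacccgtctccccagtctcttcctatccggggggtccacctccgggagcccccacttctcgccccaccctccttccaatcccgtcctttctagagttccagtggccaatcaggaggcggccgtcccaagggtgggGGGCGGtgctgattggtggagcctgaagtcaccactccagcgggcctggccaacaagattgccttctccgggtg

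GGGCGG on either strand was in 7 of the 8 members' promoters that had an entry (all but Cybb) and in 35.7% of 32851 promoters, so the box is common well beyond these genes. TGACNNNGC, the core letters of the antioxidant response element that Nrf2 binds, was in the promoter of Sod1 alone among the 8, and in 12.4% of all. No match within 300 bases says only that these letters are absent from this window.

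Total counts per kidney ran from 39926235 to 61872736, so that 3 counts stand for 0.049 to 0.0825 CPM, counts scaled to a common library size, the unit of level used here. The Lin28b row read 232, 224 and 71 counts in the LIN28B OE kidneys and 0, 18 and 33 in their controls. That row is the mouse gene, and which of its reads came from the human transgene cannot be told apart. The rows of the let-7a-1, let-7d and let-7f-1 precursors were at 0 in all 3 let-7 KO kidneys, but they held at most 50 counts in any kidney and were at 0 in let-7 WT replicate 1 too. Kidneys also differed in the level of genes with short transcripts against that of genes with long ones. Whether this came from the libraries or from the RNA of the kidneys was not tested. A transcript-length index, taken from log2 levels set against each gene's own mean, as the median over 469 genes with transcripts below 1000 bases minus the median over 3403 genes above 4000 bases, spanned -0.593 to 0.793 over the 12 kidneys. LIN28B OE replicate 3 stood at -0.541 against 0.295 and 0.312 in the other OE kidneys, and it is named below wherever a result rests on it.

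Nox4 (ENSMUSG00000030562.17, chr7:87246096-87398710, plus strand, GRCm38) was clearly counted in every kidney. It measured 64.2, 70.4 and 59.5 CPM in LIN28B control and 15.3, 10.5 and 9.52 CPM in LIN28B OE. In let-7 WT it measured 103, 93.3 and 109 CPM, and in let-7 KO 34.8, 37.8 and 35.4 CPM. No kidney of one group reached into another, and the order was let-7 WT, LIN28B control, let-7 KO and LIN28B OE, with each step down of 1.57-, 1.8- and 3.06-fold between means. The log2 fold change was -2.45 (SE 0.222) in LIN28B OE, which leaves 18.3% of the control level. It was -1.51 (SE 0.176) in let-7 KO, which leaves 35.2%. Within litter 1, with 2 kidneys against 2, the log2 differences were -2.36 in LIN28B OE and -1.42 in let-7 KO. Within litter 2, with 1 against 1, they were -2.58 and -1.61. These values chose the gene and are not evidence that it falls. In whole kidneys, fewer cells of a type and less RNA per cell cannot be told apart.

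**Figure D1:**
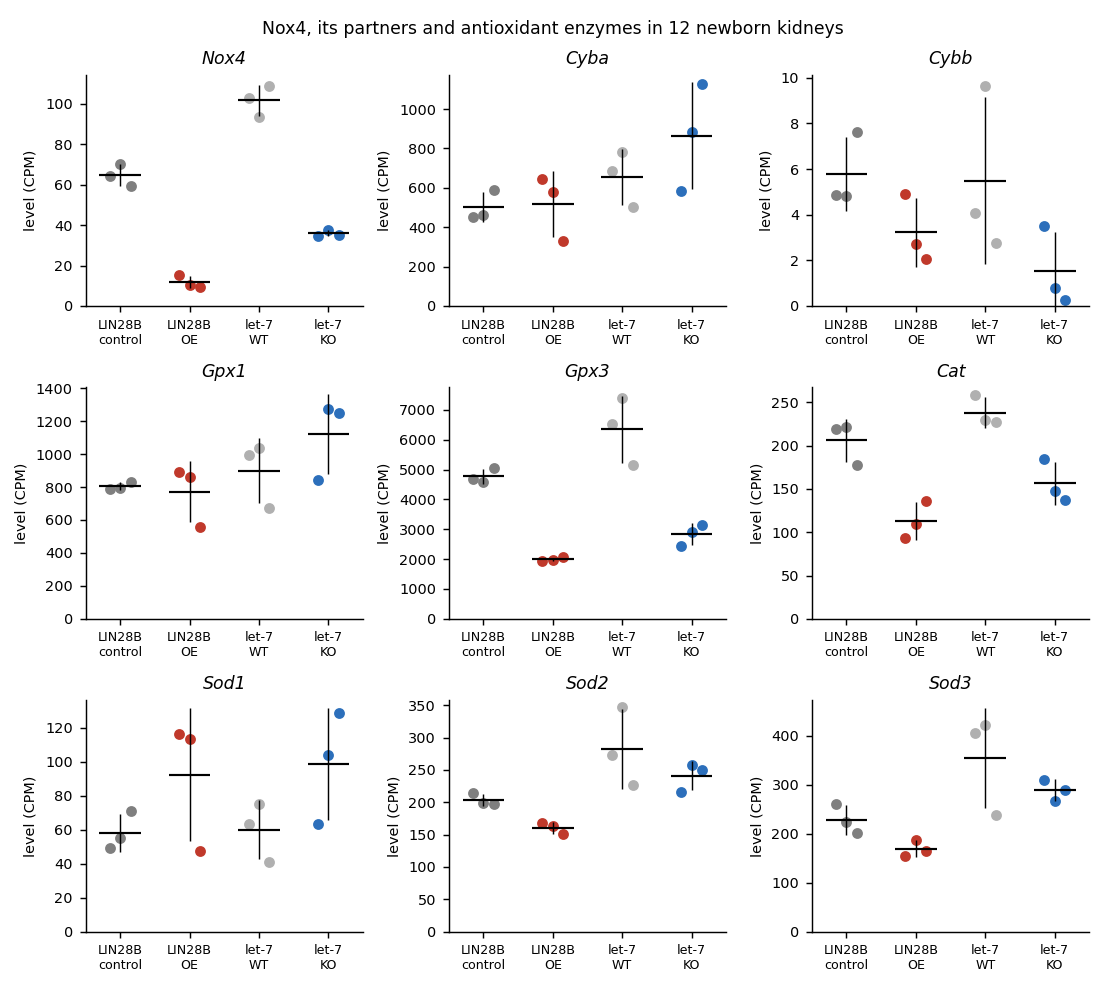
Level in CPM (vertical axes, from 0) of the 9 genes in the 3 kidneys of each group (points), with the mean (bar) and SD (line, cut at 0 for Cybb). Nox4 and Gpx3 fall into 4 separate ranges, while Cyba, Gpx1 and Sod1 have groups that overlap, with LIN28B OE replicate 3 as the lowest OE kidney of each.

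The contrast of the 2 control groups was not itself used to choose Nox4, but the same control values entered the comparisons that chose it. Its p-values here are therefore not independent of that choice. Nox4 was higher in let-7 WT than in LIN28B control by 0.66 on the log2 scale (SE 0.187), with no overlap between kidneys. In edgeR's quasi-likelihood test the unadjusted p was 0.00325 and the adjusted p 0.179, so it did not pass after adjustment. With DESeq2 the adjusted p was 0.0283, in a fit that called 242 genes higher and 155 lower of 16484. Strain, colony and experiment cannot be told apart in this contrast. None of the 9 members passed an adjusted p of 0.05, where 0.627% of 16598 genes did. Nox4, Sod2 and Sod3 had an unadjusted p below 0.01, against 3.32% of all genes. Sod3, the extracellular dismutase, was higher by 0.64 (SE 0.194, adjusted p = 0.218) and Sod2, the mitochondrial dismutase, by 0.48 (SE 0.158, adjusted p = 0.284). Gpx3 was higher by 0.42 (SE 0.142, adjusted p = 0.304). The kidneys of the 2 control groups did not overlap for Nox4, Gpx3, Cat and Sod2, as for 19.5% of all genes.

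Over the 12 kidneys, the genes whose log2 CPM followed Nox4 most closely among 14063 genes included Gatm (Pearson's r 0.987), Smpdl3a (0.981), Kcnj15 (0.965) and Slc4a4 (0.964). Gatm makes guanidinoacetate, the precursor of creatine, in proximal tubule, and Slc4a4 is the basolateral sodium bicarbonate cotransporter of that segment. These 4 stood highest in let-7 WT and lowest in LIN28B OE. Gatm, for example, ran from 1170 to 1280 CPM in let-7 WT and from 299 to 323 CPM in LIN28B OE. Among the members, Gpx3 ranked 26 (r 0.932), Cat 100 (r 0.889), Sod2 611 (r 0.751) and Sod3 933 (r 0.698). Cyba, the partner of Nox4, ranked 5209 (r 0.204), and Sod1 had a negative r (-0.416). The points are 4 groups of kidneys, so r mostly reflects the order of the group means. With group means removed, r with Nox4 was -0.334 for Gpx3 and -0.465 for Cat. For Gatm, Smpdl3a, Kcnj15 and Slc4a4 it was 0.16, 0.278, 0.298 and 0.536.

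Cyba, the partner subunit, did not pass the test in either model. It (chr8:122424776-122432930, minus strand) measured 453, 461 and 590 CPM in LIN28B control and 646, 578 and 328 in LIN28B OE. It measured 685, 781 and 502 CPM in let-7 WT and 584, 883 and 1125 in let-7 KO. The groups overlapped in both models. The log2 fold change was 0.05 (SE 0.23, adjusted p = 0.947) in LIN28B OE and 0.39 (SE 0.249, adjusted p = 0.599) in let-7 KO. Per length, Cyba stood far above Nox4 in every group, at 674 against 17.2 CPM per kilobase of transcript in LIN28B control and 695 against 3.14 in LIN28B OE.

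Cybb (chrX:9435252-9487771, minus strand) was the least abundant member, at 0.318 to 1.21 CPM per kilobase by group mean. It measured 4.86, 4.83 and 7.64 CPM in LIN28B control against 4.93, 2.71 and 2.05 in LIN28B OE, and 4.09, 9.65 and 2.74 CPM in let-7 WT against 3.49, 0.773 and 0.275 in let-7 KO. The lowest kidney held 10 counts. The groups overlapped in both models, and neither difference passed the test (log2 fold change -0.83, SE 0.465, adjusted p = 0.391, and -1.86, SE 0.926, adjusted p = 0.5). Of 8 macrophage and leukocyte markers, 6 had a negative log2 fold change in each model and none passed an adjusted p of 0.05. Their summed level was 156 to 179 CPM in LIN28B control, 119 to 167 in LIN28B OE, 117 to 205 in let-7 WT and 102 to 120 in let-7 KO. In LIN28B OE their log2 fold changes ran from -1.26 (Cx3cr1) to 0.31 (Itgam). The part of leukocytes in the Cybb values was not tested.

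Gpx3 (ENSMUSG00000018339.11, chr11:54902453-54910377, plus strand) was the most abundant member and the one whose fall passed the test in LIN28B OE. It measured 4669, 4585 and 5050 CPM in LIN28B control and 1941, 1972 and 2060 in LIN28B OE. The OE kidneys lay close together and all far below the controls. In let-7 WT it measured 6511, 7382 and 5151 CPM, and in let-7 KO 2444, 2910 and 3153. Again no KO kidney reached the lowest WT kidney. Gpx3 fell in LIN28B OE, with a log2 fold change of -1.26 (SE 0.0949, adjusted p = 0.000938, edgeR), which leaves 41.9%. Every alternative fit kept it past the threshold, with an adjusted p of at most 0.0156 when each kidney was left out in turn. In let-7 KO the log2 fold change was -1.17 (SE 0.179), with an unadjusted p of 5.41e-05 and an adjusted p of 0.129, so it did not pass after adjustment. The let-7 value moved across alternatives, from an adjusted p of 1.35e-06 with DESeq2 to 0.398 with litter as a replicate block and 0.737 without let-7 KO replicate 2. The log2 fold change itself stayed between -1.46 and -1.04 in all of them. Within litters it was -1.24 and -1.29 in LIN28B OE, and -1.38 and -0.71 in let-7 KO.

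Cat (chr2:103453849-103485160, minus strand) moved the same way by less. It measured 219, 222 and 177 CPM in LIN28B control and 93.2, 109 and 136 in LIN28B OE. It measured 259, 229 and 227 CPM in let-7 WT and 184, 147 and 138 in let-7 KO. The groups did not overlap in either model. The log2 fold change was -0.86 (SE 0.173) in LIN28B OE, with an unadjusted p of 0.000632 and an adjusted p of 0.0502, just outside the threshold. Of the 8 alternative settings, 6 put it inside. Of the 6 fits with 1 kidney left out, only that without LIN28B OE replicate 3 did (-1.02, adjusted p = 0.00352). That kidney had the highest Cat of the OE group, and without it 12.8% of all genes passed, against 1.23% with every kidney kept. The other left-out fits kept Cat outside, with an adjusted p of up to 0.261. In let-7 KO it was -0.61 (SE 0.177), with an unadjusted p of 0.00571 and an adjusted p of 0.362.

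In all, 1 of the 8 members other than Nox4 passed an adjusted p of 0.05 in LIN28B OE (Gpx3), where 1.23% of 15793 genes did. In let-7 KO none of the 8 passed, where 0.0194% of 15500 genes did. At an unadjusted p below 0.01, Gpx3 and Cat passed in both models, against 7.33% of genes in LIN28B OE and 2.73% in let-7 KO. The kidneys of the groups did not overlap for 4 of the 8 in LIN28B OE (Gpx3, Cat, Sod2 and Sod3) and for Gpx3 and Cat in let-7 KO, against 23.9% and 16.8% of all genes tested.

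**Figure D2:**
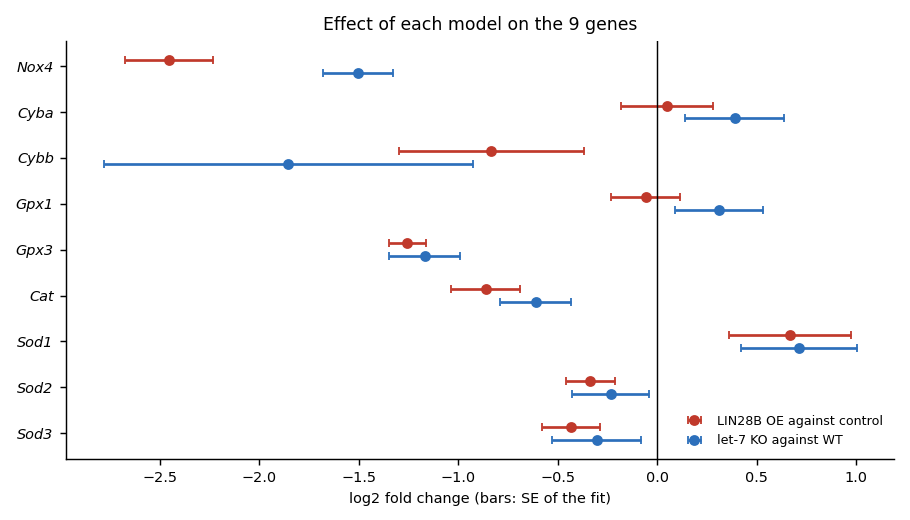
Log2 fold change (horizontal axis) of each of the 9 genes in LIN28B OE against control (red) and let-7 KO against WT (blue), with the SE of the fit as bars. Nox4, Gpx3 and Cat lie left of 0 in both models, Cyba and Gpx1 lie near 0 in LIN28B OE and right of it in let-7 KO, and Cybb has the widest bars.

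The mitochondrial and extracellular dismutases lay lower in LIN28B OE without passing the test. Sod2 (chr17:13006846-13040063, plus strand) measured 214, 198 and 197 CPM in LIN28B control and 168, 163 and 151 in LIN28B OE, with a log2 fold change of -0.34 (SE 0.123, adjusted p = 0.188). Sod3 (chr5:52363791-52371418, plus strand) measured 261, 225 and 201 CPM in control and 154, 188 and 165 in OE, with a log2 fold change of -0.43 (SE 0.147, adjusted p = 0.161). In neither did an OE kidney reach its controls. In let-7 WT and KO both genes overlapped, Sod2 at 273, 348 and 226 against 216, 258 and 250 CPM and Sod3 at 406, 422 and 237 against 310, 266 and 290 CPM. Their log2 fold changes there were -0.23 (adjusted p = 0.693) and -0.30 (adjusted p = 0.655).

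Gpx1, Sod1 and Cyba, the 3 members with the shortest transcripts (1072, 641 and 744 bases), moved with the transcript-length index of the kidney. Gpx1 (chr9:108338903-108340343, plus strand) measured 785, 796 and 833 CPM in LIN28B control, 892, 862 and 557 in OE, 993, 1035 and 672 in let-7 WT and 841, 1271 and 1252 in let-7 KO. Sod1 (chr16:90220754-90226329, plus strand) measured 49.3, 54.8 and 70.8 CPM in LIN28B control, 116, 114 and 47.2 in OE, 63.5, 75.0 and 41.0 in let-7 WT and 63.2, 104 and 128 in let-7 KO. LIN28B OE replicate 3 and let-7 WT replicate 3 were the lowest of their groups in all 3 genes, with an index of -0.541 and -0.593. let-7 KO replicates 2 and 3, with the highest indices (0.52 and 0.793), were the highest of the KO group.

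Over the 12 kidneys Pearson's r with the index was 0.95 for Sod1, 0.88 for Cyba and 0.85 for Gpx1, and -0.24 for Nox4 and -0.26 for Gpx3. These are descriptions across kidneys of 4 groups, and the index was built without the 9 members. Gpx1 had log2 fold changes of -0.06 (SE 0.171, adjusted p = 0.905) in LIN28B OE and 0.31 (SE 0.22, adjusted p = 0.643) in let-7 KO. Sod1 had 0.67 (SE 0.309, adjusted p = 0.296) and 0.71 (SE 0.291, adjusted p = 0.417). Without LIN28B OE replicate 3, Sod1 was 0.98 higher in OE, with an adjusted p of 0.00699. In that fit 12.8% of all genes passed, against 1.23% with every kidney kept. The OE kidneys left in it had an index of 0.295 and 0.312, against -0.541, -0.392 and -0.065 in the controls.

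Adding the index to the fit as a covariate, an alternative chosen after seeing the data, brought Sod1 to 0.07 in LIN28B OE and 0.06 in let-7 KO. Cyba became -0.36 (adjusted p = 0.0329) in LIN28B OE and -0.16 (adjusted p = 0.81) in let-7 KO, so that its direction in both models depends on this choice. Gpx3 stayed at -1.25 (adjusted p = 1.59e-05) and became -1.46 (adjusted p = 0.00149) in let-7 KO. Cat was -0.67 (adjusted p = 0.00961) and -0.48 (adjusted p = 0.595). Nox4 was -2.59 and -1.44.

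**Figure D3:**
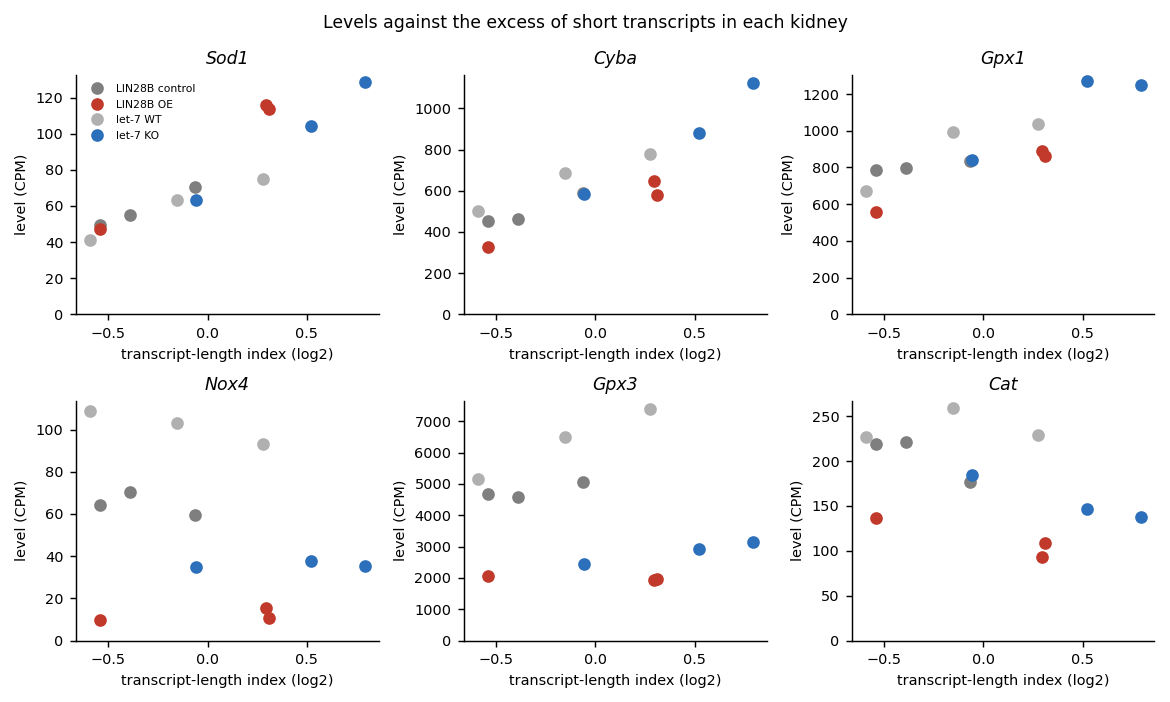
Level in CPM of 6 members (vertical axes, from 0) against the transcript-length index of each of the 12 kidneys (horizontal axis, log2), colored by group. The index is higher where genes with short transcripts stand higher against genes with long ones. Sod1, Cyba and Gpx1 rise along the index whatever the group, while Nox4 and Gpx3 of the 4 groups occupy separate ranges of level.

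Per length, Gpx3 was the highest member, Nox4 the last but one and Cybb the lowest by mean in each of the 4 groups, while the order of the others changed between groups. In LIN28B control, Gpx3 stood at 2991 CPM per kilobase, Gpx1 at 750 and Cyba at 674. Sod1 (90.9), Cat (78.8), Sod3 (61.2) and Sod2 (34.7) followed, then Nox4 (17.2) and Cybb (1.21). In LIN28B OE, Gpx3 stood at 1249 CPM per kilobase and Nox4 at 3.14.

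Within each model, most markers of the proximal tubule, thick limb and distal convoluted tubule were lower in the group where Nox4, Gpx3 and Cat were lower. Between models the order differed. By mean, let-7 KO had less Nox4, Gpx3 and Cat than LIN28B control, but a higher summed level of proximal tubule markers (6880 against 5530 CPM). These groups differ in strain and experiment as well as in genotype. All 12 markers were already higher in let-7 WT than in LIN28B control, with a median log2 fold change of 0.58. The part of strain and experiment in this order was not tested. All 12 proximal tubule markers had a negative log2 fold change in both models. In LIN28B OE 6 of them fell past an adjusted p of 0.05, against 1.23% of all genes, among them Slc34a1, the phosphate transporter of the brush border, from 1150, 1170 and 1180 CPM to 513, 520 and 490 CPM. In let-7 KO none passed, and 3 (Slc5a2, Slc5a12 and Slc22a8) had an unadjusted p below 0.01, against 2.73% of all genes. Log2 fold changes of the 12 had a median of -1.17 in LIN28B OE and -0.33 in let-7 KO, beside -0.02 over all genes tested in each. Their summed level was 5140 to 6040 CPM in LIN28B control, 2270 to 2910 in OE, 8080 to 9150 in let-7 WT and 5580 to 7800 in let-7 KO. Of the 5 thick limb and distal convoluted tubule markers, all were lower in LIN28B OE (median -0.98), where Umod and Slc12a3 passed, and 4 were lower in let-7 KO (median -0.48), where none passed. Their summed level was 832 to 1260 CPM in LIN28B control, 394 to 527 in OE, 1260 to 1450 in let-7 WT and 732 to 1290 in let-7 KO. The 6 collecting duct and 6 endothelial markers were also all lower in LIN28B OE, with medians of -0.43 and -0.51, and 1 of the former (Atp6v1b1) and none of the latter passed. In let-7 KO their medians were -0.19 and 0.04, and none passed. Podocyte, early nephron and stromal markers had medians of -0.11, -0.41 and -0.44 in LIN28B OE. In let-7 KO these 3 medians were -0.41, 0.05 and 0.13. None of these markers passed in either model. Of the 7 nephron progenitor markers tested in LIN28B OE, 4 (Six2, Cited1, Eya1 and Osr1) rose past the threshold, against 1.23% of all genes, while Tmem100 went the other way (-0.67, adjusted p = 0.129). The summed level of that list was 148 to 183 CPM in control against 379 to 458 in OE. In let-7 KO none of the 7 passed, at 105 to 124 CPM in WT against 135 to 165 in KO. The part of these cell types in the members' values was not tested.

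The 3 genes were also divided by the summed proximal tubule markers. Nox4 stood at 9.85 to 13.7 CPM per 1000 CPM of marker in LIN28B control and 3.62 to 5.92 in OE, and at 11.2 to 13.5 in let-7 WT and 4.53 to 6.24 in KO. Since Nox4 was chosen for its fall, these ratios restate the values that chose it and are a description. Gpx3 stood at 0.836 to 0.892 CPM per CPM of marker in LIN28B control and 0.678 to 0.908 in OE, which overlap, but at 0.638 to 0.889 in let-7 WT and 0.401 to 0.438 in KO, which do not. Cat overlapped in both models, at 29.3 to 43.1 CPM per 1000 against 36.1 to 60.1 in LIN28B and at 27.6 to 28.3 against 17.6 to 33.1 in let-7. Nox4 per 1000 CPM of Gpx3 was 11.8 to 15.3 in LIN28B control and 4.62 to 7.87 in OE, and 12.6 to 21.1 in let-7 WT and 11.2 to 14.2 in let-7 KO.

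**Figure D4:**
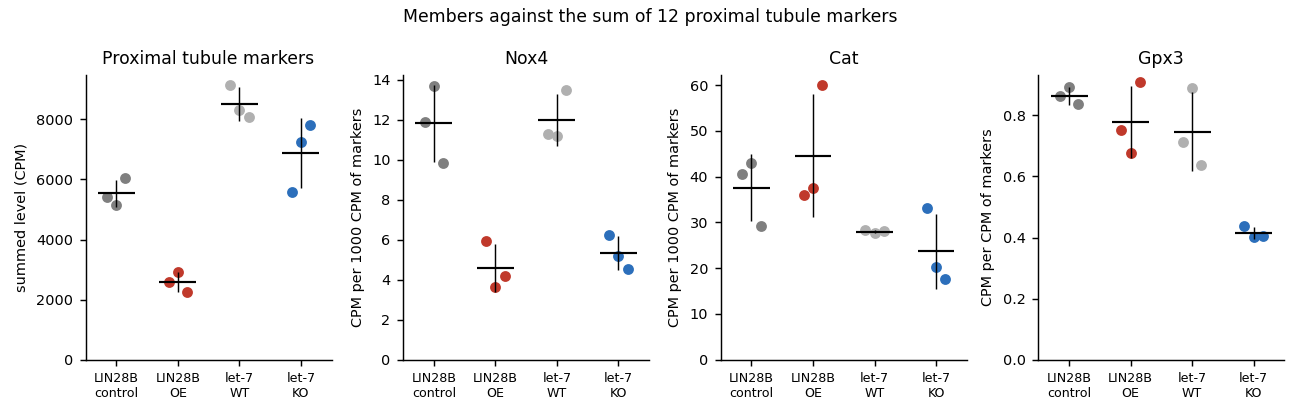
Summed CPM of 12 proximal tubule markers in each kidney (left), and Nox4, Cat and Gpx3 divided by that sum (other panels, units on the axes, all from 0), with group mean and SD. Gpx3 per marker lies lower without overlap in let-7 KO but overlaps in LIN28B OE, Cat overlaps in both, and Nox4, chosen for its fall, is shown as a description.

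The size of the effect was also compared between the models, by an interaction term fitted over the 12 kidneys together. None of the 8 members other than Nox4 differed past an adjusted p of 0.05, where 0.00602% of 16598 genes did. The difference, LIN28B effect minus let-7 effect, was -0.11 (SE 0.201) for Gpx3 and -0.27 (SE 0.236) for Cat. For Sod1 it was -0.07 (SE 0.473), and for Cybb 1.02 (SE 1.08), an error as wide as the difference. For Nox4, given as a description, it was -0.97 (SE 0.264).

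Around the members, 94 further genes of redox metabolism were listed in 7 groups, of which 83 were tested in LIN28B OE and 82 in let-7 KO. In LIN28B OE, 1 passed an adjusted p of 0.05, where 1.23% of all genes did, and 11 (13.3%) an unadjusted p below 0.01, where 7.33% did, 9 of the 11 being lower. In let-7 KO, none passed the former, where 0.0194% of all genes did, and 3 (3.66%) the latter, where 2.73% did, all 3 being lower. The medians over the lists were -0.19 and -0.06, beside -0.02 over all genes in each model.

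The gene that passed was Sepp1, whose product, selenoprotein P, carries selenium in plasma to the cells that build it into glutathione peroxidases. It fell from 291, 338 and 289 CPM in LIN28B control to 147, 147 and 162 in OE (log2 fold change -1.01, SE 0.129, adjusted p = 0.00836). Its call was lost when LIN28B control replicate 1 or 2 or OE replicate 2 was left out. In let-7 KO it measured 283, 253 and 203 CPM against 342, 347 and 307 in WT (-0.44, adjusted p = 0.416). It ranked 16 by likeness to Nox4 (r 0.942, and -0.118 with group means removed). Of the 9 metal and selenium helpers, the other 8 did not pass in either model.

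Genes of glutathione synthesis and recycling lay lower in LIN28B OE for 11 of 12, with a median of -0.47, and in let-7 KO for 7 of 12, with a median of -0.21. None passed an adjusted p of 0.05. Gclm, the modifier subunit of the enzyme that sets the pace of glutathione synthesis, came closest, at 179, 161 and 169 CPM in LIN28B control and 113, 104 and 116 in OE (-0.61, adjusted p = 0.0574). Of the 17 other enzymes that make hydrogen peroxide or superoxide, 14 were tested and none passed an adjusted p of 0.05 in either model. Acox2, a peroxisomal oxidase of bile acid side chains, had the lowest p of that list, at 61.2, 54.9 and 51.6 CPM in let-7 WT and 24.7, 22.1 and 29.8 in let-7 KO (-1.14, unadjusted p 0.000307, adjusted p = 0.239).

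The 17 peroxiredoxins, thioredoxins and glutaredoxins had medians of 0.02 and 0.07. Prdx6, a peroxidase that also reduces phospholipid peroxides, was the member of that list with the lowest p, at 276, 267 and 304 CPM in LIN28B control and 366, 434 and 406 in OE (0.51, adjusted p = 0.0768). Its r with Nox4 was -0.825, and -0.591 with group means removed. Of the 16 Nrf2 regulators and targets, 12 lay lower in LIN28B OE and 11 in let-7 KO, and none passed. Gstm1, a glutathione transferase, came nearest, at -0.69 in LIN28B OE (adjusted p = 0.0818). Of 4 other glutathione peroxidases tested, Gpx6 had the lowest p, at 48.1, 25.1 and 15.5 CPM in let-7 WT and 14.2, 8.54 and 7.95 in let-7 KO (-1.53, adjusted p = 0.362). It was lower in LIN28B OE too (-0.36). The others went the opposite way in both models. Gpx4, Gpx7 and Gpx8 were higher by 0.23, 0.56 and 0.28 in LIN28B OE and by 0.35, 0.44 and 0.53 in let-7 KO. The list medians were 0.26 and 0.4, and none of the 4 passed.

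Among the catalytic NADPH oxidases outside the members, none was counted at a level near that of Nox4. Nox3 was at 0 in every kidney and Nox1 held at most 1 count in any. Duox1 and Duox2, the dual oxidases of thyroid and airway, held at most 52 and 21 counts. Of the 17 oxidases and partners in that list, 11 were tested in LIN28B OE and 10 in let-7 KO, and none passed an adjusted p of 0.05. Noxa1, an activator of Nox1, had the lowest p, with 46, 33 and 20 counts in LIN28B control and 1, 0 and 0 in OE (adjusted p = 0.0823), and it was at 0 in all 3 let-7 WT kidneys. Rac1 and Poldip2, of which the latter binds p22phox and raises Nox4 activity, had log2 fold changes between -0.11 and -0.01 in both models.

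**Figure D5:**
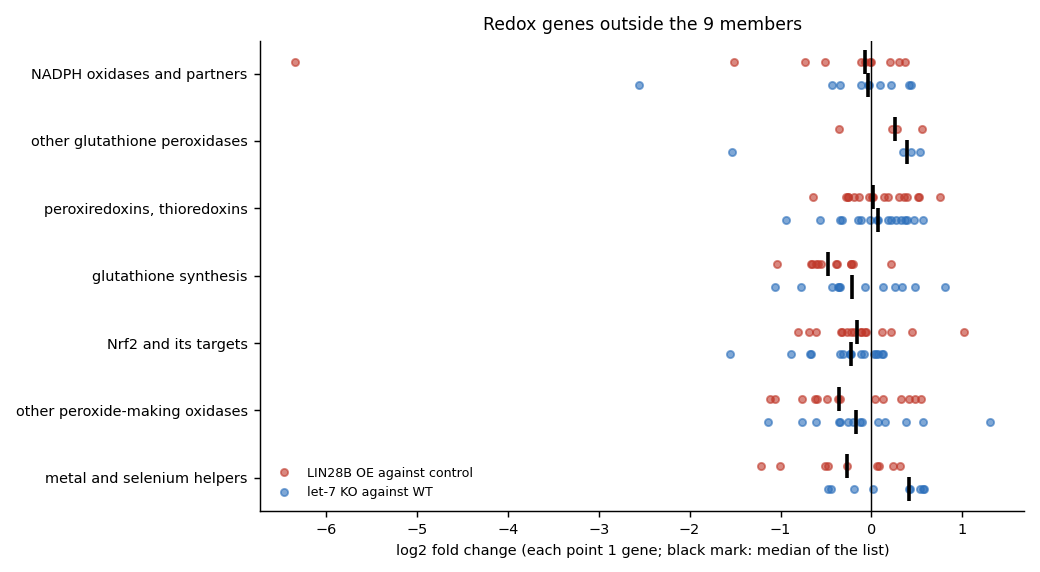
Log2 fold change (horizontal axis) of each tested gene of the 7 redox lists in LIN28B OE (red) and let-7 KO (blue), with the median of each list as a black mark. Most genes lie within 1 of 0, the lowest list median is that of glutathione synthesis in LIN28B OE (-0.47) and of the Nrf2 list in let-7 KO (-0.23), and the far point at left is Noxa1, which held at most 46 counts.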

How the data were processed

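RNA of 12 mouse kidneys was sequenced (SMARTer Ultra Low RNA kit, HiSeq). The authors deposited raw counts per gene symbol, 1 table per kidney, and per the labels' processing notes used cutadapt, TopHat2 2.0.9, Bowtie2, SAMtools 0.1.19, HTSeq and build mm10. Strand and multi-read settings are not given in the sources used here. Of 9 red cell markers, 5 globin genes were listed at 0, and values of genes with near-identical copies are uncertain.

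Tests were edgeR's quasi-likelihood F-test (edgeR 4.0.16, R 4.3.3), run separately for the LIN28B and let-7 kidneys after TMM scaling and filterByExpr (minimum count 10, minimum total 15), and p-values were adjusted by the method of Benjamini and Hochberg over every gene tested. All 9 members passed the filter. The model difference and the control contrast came from one fit of all 12 kidneys. Calls were made at an adjusted p below 0.05 and, the study's own threshold, an unadjusted p below 0.01. Standard errors are the log2 fold change over the square root of F. CPM used TMM over all 12 kidneys. With 3 kidneys per group, p-values weigh the group difference against the spread between these kidneys. The main fits had no litter term and treated the 3 kidneys, from 2 litters, as independent. Floors of 3 counts cover counting error only.

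The members and gene lists were chosen with earlier results of these data known. Genes named besides the members were those past an adjusted p of 0.05 in each redox list or, with none, the gene of lowest p, the 5 genes most like Nox4 (1 of which is not reported here), markers at 0 or behind a summed level, and the targeted genes. Rac1, Poldip2 and the genes named in the control contrast were picked after their values were seen.

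The labels give litter numbers, and replicates 1 and 2 of each group are litter 1 and replicate 3 litter 2. Deviations from group means correlated on average by -0.084 (LIN28B) and -0.011 (let-7) within litters and 0.104 and 0.014 between them. Replicates differed by more than sampling noise in every pair. Scripts were tested on simulated counts. Alternatives were DESeq2 1.42.0, upper-quartile scaling, library totals, dropping the filter, a stricter one (1 CPM or more throughout), a replicate block for litter, fitting the 12 kidneys together, the 6 control kidneys alone, each kidney left out, and, added after seeing the data, the transcript-length index as covariate.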

Additional observations from a re-analysis of the deposited data

How the results depend on the processing

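Nox4 kept its direction in every fit, from -2.69 to -2.32 in LIN28B OE and from -1.58 to -1.44 in let-7 KO, and its difference between the models ranged from -1.2 (without LIN28B OE replicate 1) to -0.83. Gpx3 in LIN28B OE passed in every fit. With litter as a replicate block the number of members other than Nox4 past an adjusted p of 0.05 was 1 in LIN28B OE and 0 in let-7 KO, as without it, and the block changed no call of a member, while over all genes it lowered the calls in LIN28B OE from 194 to 95. Cybb could not be fitted under the strict filter in let-7 KO or in the fits of all 12 kidneys.

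In LIN28B OE, the count of the 8 members past an adjusted p of 0.05 was 1, and it became 2 with DESeq2, no filter, the strict filter, upper-quartile normalization or one fit of all 12 kidneys, through Cat, and 3 with the length covariate. It ranged from 1 to 3 when each kidney was left out, with 3 without OE replicate 3. At an unadjusted p below 0.01 it was 2, but 4 with library totals and 5 with the length covariate. In let-7 KO the adjusted count was 0, but 2 with DESeq2 and 1 with library totals, one fit of all 12 kidneys or the length covariate. At an unadjusted p below 0.01 it was 2, and from 1 to 4 when each kidney was left out, with 4 without let-7 KO replicate 1. Over all genes in let-7 KO, 0.0194% passed an adjusted p of 0.05, but 1.52% with DESeq2. That share was 0.0258% with library totals, 0.0301% with one fit of all 12 kidneys and 0.00645% with the length covariate. In the control contrast the count was 0, but 1 with DESeq2 (Nox4), and from 0 to 1 when each kidney was left out, with 1 without let-7 WT replicate 3 (Sod3).

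Among the genes of the 7 redox lists the adjusted count in LIN28B OE was 1, but 11 with DESeq2, 6 with the strict filter, 2 with library totals, 4 with one fit of all 12 kidneys and 13 with the length covariate. It ranged from 0 to 21 when each kidney was left out, with 21 without OE replicate 3. At an unadjusted p below 0.01 it was 11, but 17 with library totals and 21 with the length covariate, and from 6 to 22 with a kidney left out, with 22 without OE replicate 3. In let-7 KO the adjusted count was 0, but 1 with DESeq2. At an unadjusted p below 0.01 it was 3, but 8 with DESeq2, 6 with no filter or the strict filter and 7 with one fit of all 12 kidneys, and from 1 to 13 with a kidney left out, with 13 without let-7 KO replicate 1. The counts over all genes moved too. In LIN28B OE the adjusted share of all genes was 1.23%, but 8.03% with DESeq2, 3.14% with the strict filter, 6.27% with the length covariate and 12.8% without OE replicate 3. In let-7 KO the adjusted share was 0.0194%, but 1.52% with DESeq2. The share there at an unadjusted p below 0.01 was 2.73%, but 5.46% with DESeq2 and 8.12% without KO replicate 1. The causes were not tested.

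Directions turned only for differences that did not pass in the reported fit. In LIN28B OE, Cyba became -0.02 with library totals, -0.36 with the length covariate and -0.14 to 0.29 with a kidney left out, and Gpx1 -0.18 to 0.13 with a kidney left out. In let-7 KO the length covariate gave -0.16 for Cyba and -0.11 for Gpx1. The difference between models reached 0.14 for Sod1 with the length covariate and, with a kidney left out, -0.23 to 0.02 for Gpx3, -0.31 to 0.25 for Sod1, -0.3 to 0.01 for Sod2 and -0.29 to 0.07 for Sod3. In the control contrast Sod1 became -0.04 with library totals, -0.2 with the length covariate and -0.15 to 0.25 with a kidney left out, and Cybb -0.75 to 0.26 with a kidney left out.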

Other observations

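Genes of the redox lists also differed between the 2 control groups. Of 86 listed genes tested, 7 were past an adjusted p of 0.05, where 0.627% of all genes were, all 7 higher in let-7 WT than in LIN28B control, and the median log2 difference was 0.27 beside -0.01 over all genes. They were named after their values were seen. Gsta1, a glutathione transferase, was higher by 4.83 (adjusted p = 0.00253), Acox2 by 2.1 (adjusted p = 0.00576) and Hmox1, heme oxygenase 1, by 2.05 (adjusted p = 0.00185). Sqstm1, an adaptor of selective autophagy that binds Keap1, was higher by 1.03, Glrx by 0.95, Idh1 by 0.9 and Gclm by 0.84. Cell type markers differed in this contrast too. All 12 proximal tubule markers were higher in let-7 WT, with a median of 0.58, and 1 passed an adjusted p of 0.05. All 5 podocyte and all 5 thick limb and distal convoluted tubule markers were higher (medians 0.5 and 0.45). Of 7 nephron progenitor markers, 6 were lower (median -0.88). The part of these cell types in the redox genes was not tested. Strain, litter and experiment cannot be told apart here, and the difference between this contrast and the let-7 contrast was not tested.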
